A study of Mus musculus with 4 samples.

Results

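The granule proteins of neutrophils were followed through 10 genes: Elane, Mpo, Prtn3, Fcnb, Camp, Ngp, Ltf, Lcn2, Cd177 and Wfdc21. They were taken by symbol from the gene list shared by all libraries, and all 10 were found among its 32285 genes. The data are single-cell transcriptomes of mice carrying B16-F10 melanoma, made with a droplet kit that tags the 3' end of each transcript with a unique molecular identifier (UMI), so that a UMI count stands for captured transcripts and needs no scaling to gene length. The mice were males on the C57BL/6 background, 8 weeks old, killed on day 18 after cells of the melanoma line were placed under the skin. The tested mice lack Ndufa4 (KO), which encodes a subunit of cytochrome c oxidase, complex IV of the respiratory chain, and their controls were wild-type (WT). The labels do not say in which cells or by which allele Ndufa4 is lost. Each genotype gave a spleen library of sorted CD45+CD11b+ cells, a gate on a general leukocyte marker and a myeloid integrin, and a tumour library of sorted CD45+ cells. Each library pooled equal numbers of cells from 3 mice by the series description, so there are 4 libraries and 1 per genotype and organ. With 1 pooled library per group no test between groups was possible, the spread between mice is unknown, and every interval given here is a 95% interval of counting error alone.

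Neutrophils make their granule proteins in waves while they mature. Myeloblasts and promyelocytes make those of primary (azurophil) granules, myelocytes and metamyelocytes those of secondary (specific) granules, and band and segmented cells mainly those of tertiary granules, so the mix of granule transcripts reports how far a cell has matured. Elane (neutrophil elastase), Prtn3 (proteinase 3) and Mpo (myeloperoxidase) are primary granule genes. Camp (the cathelicidin precursor), Ngp (neutrophilic granule protein), Ltf (lactoferrin), Lcn2 (lipocalin 2, which binds bacterial siderophores) and Cd177 (a surface and granule glycoprotein that in humans binds proteinase 3) are secondary granule genes, and Wfdc21, a whey acidic protein family gene, was kept with them. Fcnb (ficolin B, a lectin of early myeloid cells) was given apart. Transcription of these genes is known to use factors of the C/EBP, ETS and MYB families.

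In GRCm38, the genome build named in the submitters' processing notes, Prtn3 (chr10:79874476-79883174) and Elane (chr10:79886247-79888215) lie on the same strand 3073 bases apart. Camp (chr9:109847379-109849617), Ngp (chr9:110419747-110423012) and Ltf (chr9:111019271-111042767) share chromosome 9, with 570130 bases between Camp and Ngp and 596259 between Ngp and Ltf. Mpo (chr11:87793581-87804413) and Wfdc21 (chr11:83746940-83752642) are on chromosome 11, Fcnb (chr2:28076378-28084885) and Lcn2 (chr2:32384633-32388252) on chromosome 2, and Cd177 (chr7:24743983-24760311) on chromosome 7.

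The start regions of a primary pair and a secondary pair are shown as examples. They are the RefSeq sequences of GRCm38.p6 from 250 bases before to 50 after each start, on the gene's strand, and 9 of the 10 genes had one (Wfdc21 had none). Capitals mark matches on either strand to TTGCNNAA (a C/EBP site), GAGGAA (the core of an ETS site) or AACGG (the core of a MYB site), and no match overlapped another. The regions are chr10:79886062-79886361 for Elane, chr10:79879417-79879716 for Prtn3, chr9:110419558-110419857 for Ngp and chr9:111019042-111019341 for Ltf, all on the plus strand.
Elane: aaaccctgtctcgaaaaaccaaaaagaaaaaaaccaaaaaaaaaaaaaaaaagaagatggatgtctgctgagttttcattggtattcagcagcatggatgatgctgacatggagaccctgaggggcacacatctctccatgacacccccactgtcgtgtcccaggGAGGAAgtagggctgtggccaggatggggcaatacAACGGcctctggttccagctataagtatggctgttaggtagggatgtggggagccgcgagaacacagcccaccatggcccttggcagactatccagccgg
Prtn3: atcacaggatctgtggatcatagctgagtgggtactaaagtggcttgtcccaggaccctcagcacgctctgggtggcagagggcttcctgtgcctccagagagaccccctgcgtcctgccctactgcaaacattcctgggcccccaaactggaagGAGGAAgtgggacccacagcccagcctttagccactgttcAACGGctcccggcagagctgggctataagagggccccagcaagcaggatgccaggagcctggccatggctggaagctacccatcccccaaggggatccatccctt
Ngp: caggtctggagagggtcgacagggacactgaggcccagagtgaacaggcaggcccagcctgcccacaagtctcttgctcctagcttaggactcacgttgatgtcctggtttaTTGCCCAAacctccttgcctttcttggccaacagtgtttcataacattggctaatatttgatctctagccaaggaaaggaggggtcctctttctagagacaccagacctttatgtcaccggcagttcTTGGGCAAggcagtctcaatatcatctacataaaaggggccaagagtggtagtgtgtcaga
Ltf: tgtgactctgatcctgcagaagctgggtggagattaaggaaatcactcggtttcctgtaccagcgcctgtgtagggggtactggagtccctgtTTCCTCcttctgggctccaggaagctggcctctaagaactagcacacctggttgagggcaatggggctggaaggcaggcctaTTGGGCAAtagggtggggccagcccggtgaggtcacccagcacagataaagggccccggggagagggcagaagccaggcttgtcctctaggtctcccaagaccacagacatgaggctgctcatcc
Elane and Prtn3 each held a GAGGAA match followed by an AACGG match, at -85 and -50 from the Elane start and at -95 and -55 from the Prtn3 start. Ngp held C/EBP matches at -138 and -11, and Ltf held 1 at -75 and a GAGGAA match on the other strand at -157. Over the 9 regions, 4 held a C/EBP match (Fcnb, Ngp, Ltf and Lcn2), 6 a GAGGAA match and 2 an AACGG match, and Camp held none of the 3. Among all 32851 mouse start regions of this length the shares were 10.8%, 28.3% and 17.4%. A match is a string of letters, not a bound site.

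The libraries held 46499361 UMIs over 7789 barcodes in the KO spleen and 57272311 over 8107 in the WT spleen, and 63560706 over 6122 in the KO tumour and 47754169 over 4798 in the WT tumour. After filtering, 6519 and 7042 spleen cells and 4428 and 3865 tumour cells remained, KO before WT, with median depths of 4290, 4631, 10270.5 and 7116 UMIs. Levels are given as CPM, the counts-per-million scale on which a gene has its UMIs divided by all UMIs of the class. Ndufa4 stood at 0.633 CPM in KO against 268 in WT spleen cells, and at 15.6 in KO against 332 in WT tumour cells. Pairs of libraries shared between 6 and 22 cell barcodes. The 10 genes took 1.39% of all UMIs of kept cells in the KO spleen and 0.167% in the WT spleen, against 0.00642% in the KO tumour and 0.0179% in the WT tumour.

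Neutrophil-lineage cells were found by clustering and by fixed marker genes, with the 10 genes left out of the genes used for clustering. The spleen held 1731 of them in KO and 2219 in WT, or 26.6% and 31.5% of kept cells. Subclusters split them into stages that differed by more than 100-fold in several of the 10 genes. A subcluster led by the cell division genes Mki67, Top2a and Ube2c is called cycling (72 KO and 13 WT cells). It was given no progenitor name, since Ctsg, a marker of promyelocytes, had 0 UMIs in both genotypes. Of the 10 granulocyte progenitor markers 9 had a UMI in its KO and 8 in its WT cells, and they summed to 1379 and 1076 CPM. Lymphocytes had 1823 and 1688 CPM. Most lymphocytes here were NK cells and the list holds Nkg7, a gene of NK cells, so their level is no background for it. Immature neutrophil markers stood at 24756 CPM in the KO and 20313 CPM in the WT cycling cells. A subcluster led by Serpinb1a, Ifitm6 and Orm1 is called immature-like (229 KO and 20 WT cells). Both together are called early here. A subcluster led by Mmp8, Gpr27 and Prok2, with Retnlg and Olfm4 also among its leading genes, kept no stage name (74 KO and 61 WT cells). A set of 5 subclusters was called mature-like (1273 KO and 2052 WT cells). A further subcluster led by the macrophage genes Vcam1, C1qa and C1qc was kept out of the stages (82 KO and 72 WT cells).

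The early cells made up 17.4% (15.6 to 19.3) of the KO spleen lineage and 1.49% (1.03 to 2.08) of the WT spleen lineage, a difference of 15.9 percentage points (14.1 to 17.8). The mature-like cells made up 73.5% (71.4 to 75.6) in KO and 92.5% (91.3 to 93.5) in WT. The share of early cells among all kept spleen cells was 4.62% in KO and 0.469% in WT. The gap between KO and WT early shares lay between 13.2 and 17.2 points when cell filters, doublet removal, clustering resolution, random seed or the genes allowed for clustering were changed. Other markers differed between the cycling cells of the 2 genotypes: the 10 NK cell markers summed to 152 CPM in KO and 1563 CPM in WT, the 12 mature neutrophil markers to 1594 CPM in KO and 7475 CPM in WT, and the 10 cell cycle markers to 5346 CPM in KO and 2947 CPM in WT. Only 10 of the 13 WT cycling cells stood above the level of secondary granule genes in lymphocytes. The part of these markers in the KO and WT values of early cells was not tested.

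**Figure D1:**
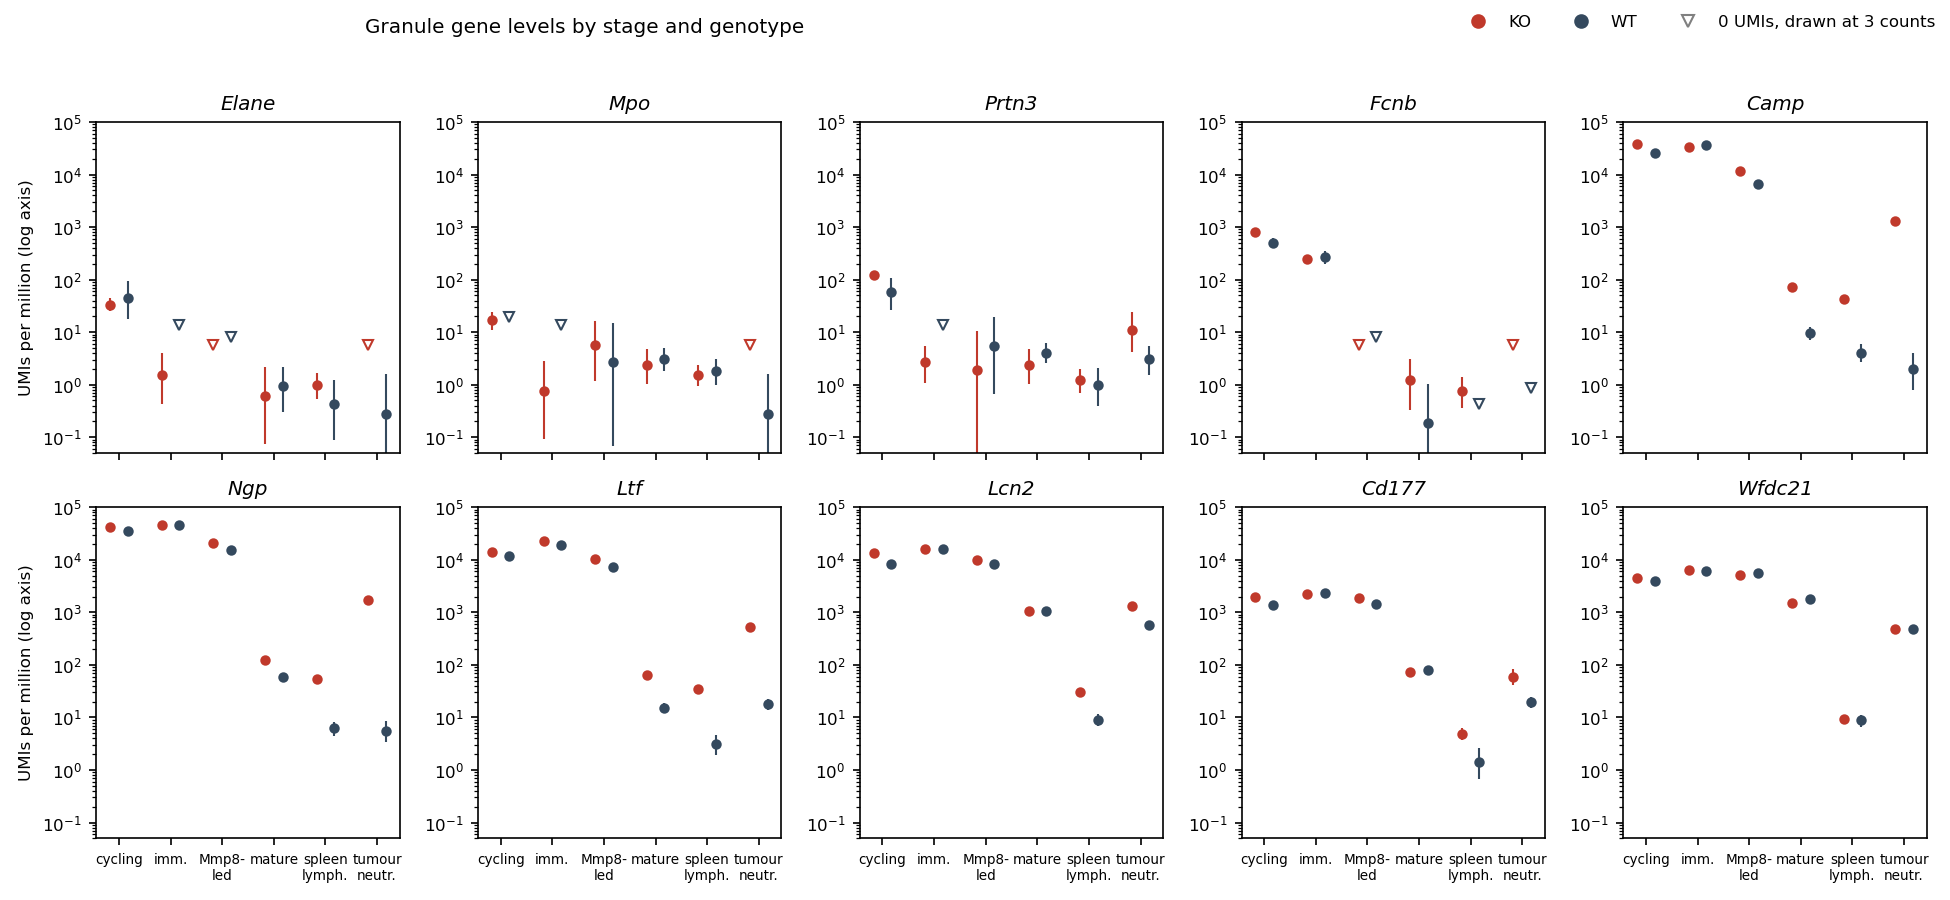
Level of each of the 10 genes (CPM, log axis, with 95% Poisson intervals) in cycling, immature-like, Mmp8-led and mature-like spleen cells, in spleen lymphocytes and in tumour neutrophil-lineage cells, for KO (red) and WT (dark blue); an open triangle marks 0 UMIs and is drawn at the level of 3 counts. In KO the primary granule genes and Fcnb are highest in the cycling cells, whereas in both genotypes Lcn2 and Wfdc21 are still near or above 1000 CPM in mature-like cells, where Camp, Ngp and Ltf are at 123 CPM or less.

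Within the spleen lineage the primary granule genes were mostly found in the cycling cells in KO, which held 256 of the 293 UMIs. In WT the cycling cells held 16 of 64 UMIs and the mature-like cells 44. Prtn3 stood at 121 CPM in cycling and 2.70 CPM in immature-like KO cells, a log2 ratio of 5.48 (4.41 to 6.82). Elane stood at 33.4 and 1.54 CPM in the same order, and Mpo at 16.7 and 0.771 CPM. The 3 genes together had 256 UMIs in 72 cycling cells and 13 UMIs in 229 immature-like cells, a log2 ratio of 5.09 (4.29 to 6.02). A single KO cell held 122 of the 256 UMIs, and 34 of the 72 KO cells had any. In the WT spleen the cycling cells had 16 primary granule UMIs, 7 of Elane and 9 of Prtn3 and none of Mpo, and all 16 were in 1 cell. The 20 WT immature-like cells had 0, against a 3-count floor of 13.7 CPM for each gene, which is above the KO immature-like level.

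Fcnb spanned both early stages. It had 1212 UMIs (809 CPM) in KO cycling and 630 UMIs (243 CPM) in KO immature-like cells, a log2 ratio of 1.74 (1.60 to 1.88). The WT cells had 500 CPM in cycling and 265 CPM in immature-like cells. In the Mmp8-led cells Fcnb had 0 UMIs in both genotypes, and in mature-like cells it had 4 UMIs in KO and 1 in WT.

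The secondary granule genes were nearly as high in the cycling as in the immature-like cells of KO, and lower in those of WT. The 6 genes took 11.4% of all UMIs there and 12.6% in immature-like cells of the KO spleen, and 8.81% and 12.7% in the WT spleen. Camp (37514 CPM in KO cycling, 33175 in KO immature-like cells) and Ngp (42470 and 45315 CPM) differed by less than 0.2 on the log2 scale between these stages. Ltf was lower in KO cycling cells, at 14031 CPM against 22377 CPM in immature-like cells, a log2 ratio of -0.67 (-0.70 to -0.65). Wfdc21 was also lower there, at 4531 against 6314 CPM, a log2 ratio of -0.48 (-0.52 to -0.44). Lcn2, at 13484 against 16168 CPM, and Cd177, at 1989 against 2286 CPM, lay between. The WT cycling cells were lower than WT immature-like cells in all 6 genes, by between 0.35 (Ngp) and 0.93 (Lcn2) on the log2 scale.

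The later stages split the secondary granule genes into a group that was nearly gone from mature-like cells and a group that stayed. From early to Mmp8-led to mature-like cells, Camp stood at 34763, 11842 and 71.7 CPM in KO and at 32494, 6569 and 9.42 CPM in WT. Ngp stood at 44274, 20664 and 123 CPM in KO and at 41993, 15562 and 58.0 CPM in WT. Ltf stood at 19322, 10384 and 63.0 CPM in KO and at 16139, 7148 and 15.3 CPM in WT. Early cells thus exceeded mature-like cells by 485-fold for Camp, 360-fold for Ngp and 307-fold for Ltf in KO, and by 3448-fold, 724-fold and 1052-fold in WT. By a per-cell count given below, Camp and Ltf in mature-like cells were not separable from the background of free RNA, which was higher in KO. Their folds, and the gap between the folds of KO and WT, therefore cannot be told apart from that background.
Lcn2 stood at 15185, 10129 and 1058 CPM in KO and at 12747, 8354 and 1055 CPM in WT along the same stages, so that early cells exceeded mature-like cells 14.4-fold in KO and 12.1-fold in WT. Wfdc21 had the flattest course, with 5662, 5164 and 1506 CPM in KO and 5327, 5648 and 1763 CPM in WT. Its early over mature-like ratio was 3.76-fold in KO and 3.02-fold in WT. Cd177 stood between the groups, with 29.5-fold more in early than in mature-like cells in KO and 24.0-fold in WT.

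The make-up of the secondary granule transcripts therefore differed by stage. Among secondary granule UMIs of KO early cells 28.6% were Camp, 36.5% Ngp, 15.9% Ltf, 12.5% Lcn2, 1.79% Cd177 and 4.66% Wfdc21, and the WT early cells had 29.4%, 38.0%, 14.6%, 11.5%, 1.76% and 4.81%. In mature-like cells Wfdc21 made up 52.0% in KO and 59.1% in WT, and Lcn2 36.5% in KO and 35.4% in WT. Camp, Ngp and Ltf made up 2.48%, 4.25% and 2.18% in KO mature-like cells, and 0.316%, 1.95% and 0.514% in WT mature-like cells. Within the mature-like subclusters Lcn2 ranged from 430 to 1425 CPM in KO and from 440 to 1787 CPM in WT, with the lowest level in the subcluster led by Clec4n and the highest in the one led by Stfa1 in both genotypes.

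Lymphocytes, which do not make these proteins, give the background that free RNA leaves in every droplet. The spleen libraries held 2884 KO and 1435 WT lymphocytes (T, NK and B cells), most of them NK cells (2437 and 1184), with median depths of 4115.5 and 4369 UMIs. The secondary granule genes together stood at 175 CPM in KO and 32.6 CPM in WT lymphocytes, a log2 ratio of 2.42 (2.22 to 2.62). A secondary granule UMI was present in 52.1% of KO and 13.4% of WT lymphocytes. Camp stood at 42.1 CPM in KO and 4.09 CPM in WT lymphocytes, Ngp at 53.6 and 6.21, Ltf at 35.0 and 3.11, and Lcn2 at 29.9 and 9.04. Wfdc21 differed little, at 9.19 and 8.75 CPM (log2 ratio 0.07, -0.38 to 0.54). The 3 kinds of KO lymphocytes had like levels, with Camp at 29.0 CPM in T, 45.4 CPM in NK and 29.9 CPM in B cells.

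The background of the KO spleen was led by Ngp, Camp and Ltf, as were the KO early cells and the KO Mmp8-led cells. Of 2280 secondary granule UMIs in KO lymphocytes 24.1% were Camp, 30.7% Ngp, 20.04% Ltf, 17.1% Lcn2 and 5.26% Wfdc21. In KO Mmp8-led cells the shares were 19.7%, 34.4%, 17.3%, 16.9% and 8.60% in the same order. Which cells the background came from was not tested. Of the 231 in WT lymphocytes 12.6% were Camp, 19.0% Ngp, 9.52% Ltf, 27.7% Lcn2 and 26.8% Wfdc21. Against that background, KO early cells stood 825-fold higher for Camp, 826-fold for Ngp, 552-fold for Ltf and 508-fold for Lcn2. WT early cells stood 7935-fold, 6759-fold, 5195-fold and 1411-fold higher than WT lymphocytes for the same genes. The primary granule genes were near background in lymphocytes of both libraries, at 3.75 CPM in KO and 3.25 CPM in WT, with a UMI in 1.63% and 1.46% of cells. Fcnb had 10 UMIs in KO and 0 in WT lymphocytes.

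**Figure D2:**
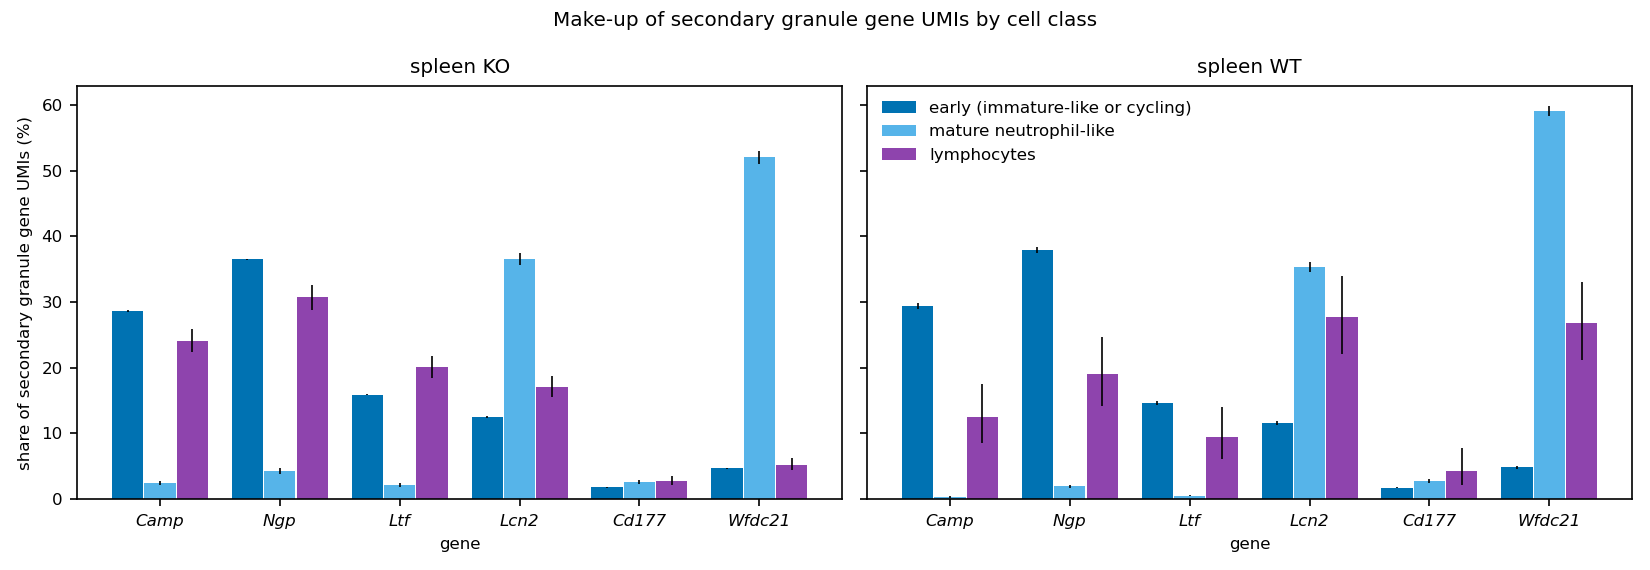
Share of each secondary granule gene among all secondary granule UMIs (percent, with exact binomial intervals) in early cells, mature-like cells and lymphocytes of the KO spleen (left) and the WT spleen (right). Camp, Ngp and Ltf lead in early cells and in KO lymphocytes, and Wfdc21 leads in the mature-like cells of both genotypes, with 52.0% in KO and 59.1% in WT.

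Mature-like cells differed from background gene by gene. On the CPM scale Camp stood 1.70-fold, Ngp 2.29-fold and Ltf 1.80-fold above lymphocytes in the KO spleen, whereas Lcn2 stood 35.4-fold, Cd177 15.3-fold and Wfdc21 164-fold above them. In the WT spleen the same ratios were 2.30, 9.34 and 4.94 for Camp, Ngp and Ltf, and 117, 57.6 and 201 for Lcn2, Cd177 and Wfdc21. Mature-like cells are shallower than lymphocytes (median 2553 against 4115.5 UMIs in KO, 2573.5 against 4369 in WT), which raises a CPM ratio where both carry the same number of background UMIs. Counted per cell, a Camp UMI was present in 15.6% of KO mature-like cells and 17.1% of KO lymphocytes, an Ltf UMI in 13.7% and 13.2%, and an Ngp UMI in 24.0% and 20.4%. Lcn2 was present in 61.7% of KO mature-like cells and 12.5% of KO lymphocytes. In the WT spleen the shares were 2.19% and 1.88% for Camp, 1.41% and 1.46% for Ltf, and 8.53% and 3.00% for Ngp. Camp and Ltf in mature-like cells were thus not separable from background by this count in either genotype. The 83 Ltf UMIs of WT mature-like cells lay in 29 of 2052 cells. The primary granule genes had 18 UMIs in 1273 KO and 44 UMIs in 2052 WT mature-like cells, 1.45-fold and 2.50-fold above the lymphocytes of the same library.

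The genotypes were then compared over the whole spleen lineage. All 10 genes were at least 1.5-fold higher in KO than in WT, where 23.1% of the 10154 genes with at least 20 UMIs passed that fold upward and 17.9% downward. The median log2 KO/WT ratio of the 10 genes was 2.21, against -0.02 for all genes. The secondary granule genes together took 6.58% of lineage UMIs in KO and 1.17% in WT, a log2 ratio of 2.49 (2.48 to 2.50). Early cells held 496688 of the 538897 secondary granule UMIs of the KO lineage and 41459 of the 74583 of the WT lineage. Fewer cells of a stage and less RNA per cell cannot be told apart in such sums over the whole lineage.

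Among the secondary granule genes the lineage ratio was largest for those lost at maturity. Camp stood at 18183 CPM in KO and 2300 CPM in WT (log2 2.98, 2.96 to 3.01). Ltf stood at 10365 and 1377 CPM (2.91, 2.88 to 2.94), and Ngp at 23536 and 3422 CPM (2.78, 2.76 to 2.80). Cd177, at 1242 and 268 CPM, and Lcn2, at 8701 and 2158 CPM, had ratios of 2.21 and 2.01. Wfdc21 had the smallest, 0.80 (0.77 to 0.83), from 3803 CPM in KO and 2181 CPM in WT. Fcnb had the largest ratio of all, 3.39 (3.14 to 3.65), with 1846 UMIs (226 CPM) in KO and 137 UMIs (21.5 CPM) in WT.

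The primary granule genes were few in both libraries. Over the lineage Prtn3 had 197 UMIs (24.1 CPM) in KO and 33 UMIs (5.18 CPM) in WT, a log2 ratio of 2.22 (1.68 to 2.79). Elane had 57 and 12 UMIs, a log2 ratio of 1.89 (0.97 to 2.92), and Mpo 39 and 19, a log2 ratio of 0.68 whose interval (-0.15 to 1.55) includes 0. Their sum stood at 35.8 CPM in KO and 10.0 CPM in WT, a log2 ratio of 1.83 (1.44 to 2.25). This value rests on few, deep cells: it was -0.02 when every cell had equal weight and 4.96 when cells of 200 or more UMIs were admitted, since that clustering kept 1 KO barcode with 2582 primary granule UMIs.

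Within early cells the genotypes were closer than over the lineage. Of the 10 genes 1, Prtn3, passed the 1.5-fold mark upward in KO and none downward, and Mpo could not be judged. Among the 8022 genes with at least 20 UMIs 18.7% passed upward and 15.2% downward, and with no filter on low counts 34.7% and 21.2%. The secondary granule sum stood at 121384 CPM in KO and 110652 CPM in WT, a log2 ratio of 0.13 (0.12 to 0.15), against 2.49 over the lineage. The 6 genes ranged from 0.08 for Ngp to 0.26 for Ltf. Fcnb stood at 450 CPM in KO and 363 CPM in WT, a ratio of 0.31 (0.06 to 0.57). The ratios of Fcnb, Ngp, Cd177 and Wfdc21 changed sign under 1 or more other cell filters, thinning or clustering settings.
In immature-like cells alone the secondary granule sum was 125635 CPM in 229 KO cells and 126792 CPM in 20 WT cells (log2 -0.01, -0.03 to 0.00), with Camp at -0.16 (-0.19 to -0.12) and Ltf at 0.23 (0.18 to 0.27). In cycling cells alone it was higher in KO, at 114021 CPM in 72 KO cells and 88053 CPM in 13 WT cells (0.37, 0.35 to 0.40), with Lcn2 at 0.70, Cd177 at 0.54, Camp at 0.52, Ngp and Ltf at 0.23 each and Wfdc21 at 0.17. Fcnb stood there at 809 CPM in KO and 500 CPM in WT (0.70, 0.36 to 1.04).

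The primary granule genes had few WT counts in early cells. Prtn3 had 188 UMIs (45.9 CPM) in KO and 9 (24.0 CPM) in WT, a log2 ratio of 0.94 whose interval (-0.02 to 2.09) includes 0. Mpo had 27 UMIs (6.60 CPM) in KO and 0 in WT, but the WT 3-count floor was 8.01 CPM, so no fold is given. Elane was lower in KO, with 54 UMIs (13.2 CPM) against 7 (18.7 CPM), a log2 ratio of -0.50 (-1.64 to 0.88). In cycling cells alone Prtn3 stood at 121 CPM in KO and 57.7 CPM in WT (1.07, 0.11 to 2.22), with all 9 WT UMIs in 1 cell. For the sum of the 3 genes, 65.7 CPM in KO and 42.7 CPM in WT early cells, no difference was detectable at this depth (log2 0.62, -0.10 to 1.45).

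The Mmp8-led cells differed more by genotype than the early cells did. Camp stood at 11842 CPM in KO and 6569 CPM in WT (log2 0.85, 0.78 to 0.92), Ltf at 10384 and 7148 CPM (0.54, 0.47 to 0.61), and Ngp at 20664 and 15562 CPM (0.41, 0.36 to 0.46). Cd177 and Lcn2 had ratios of 0.37 and 0.28, and Wfdc21 was lower in KO, at 5164 against 5648 CPM (-0.13, -0.21 to -0.05). The median cell of this subcluster held 328.5 secondary granule UMIs among 70 KO cells with no primary granule UMI and 98.5 among 58 such WT cells. Median depth was 7099 UMIs in KO and 5417 UMIs in WT. Whether this subcluster holds the same mix of cells in both genotypes was not tested.

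In mature-like cells the genes split again. Of the 8 genes with at least 20 UMIs, 3 were at least 1.5-fold higher in KO (Camp, Ngp and Ltf), where 5.58% of 8706 genes passed upward, and 1 was lower (Prtn3), where 7.97% passed downward. Camp stood at 71.7 CPM in KO and 9.42 CPM in WT (log2 2.93, 2.49 to 3.39), Ltf at 63.0 and 15.3 CPM (2.04, 1.67 to 2.42) and Ngp at 123 and 58.0 CPM (1.08, 0.87 to 1.30). The same 3 genes differed between KO and WT lymphocytes by log2 3.36, 3.49 and 3.11. Since the share of cells with a Camp or Ltf UMI was near that of lymphocytes in each library, these KO/WT ratios cannot be told apart from the difference in background.
Lcn2 differed little, at 1058 CPM in KO and 1055 CPM in WT (0.00, -0.06 to 0.07). Cd177 stood at 73.8 and 81.3 CPM (-0.14, -0.37 to 0.09), and Wfdc21 was lower in KO, at 1506 against 1763 CPM (-0.23, -0.28 to -0.18). Prtn3 had 8 UMIs in KO and 22 in WT (-0.75, -2.13 to 0.47). The secondary granule sum came to 2896 CPM in KO and 2982 CPM in WT (-0.04, -0.08 to -0.01).

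**Figure D3:**
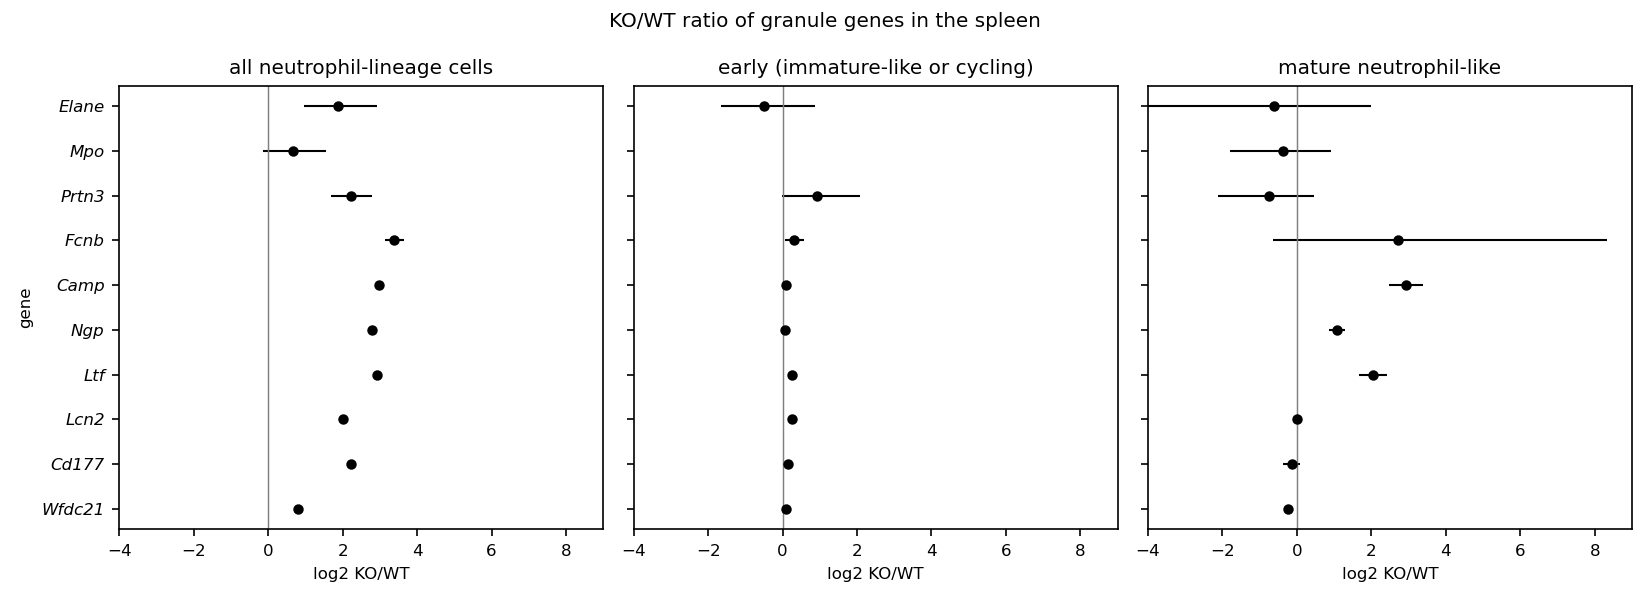
Log2 KO/WT ratio of each gene, with its 95% counting interval, over all spleen neutrophil-lineage cells (left), in early cells (middle) and in mature-like cells (right); Mpo has no point in the middle panel because WT had 0 UMIs. The secondary granule genes lie between 0.80 and 2.98 on the left and between 0.08 and 0.26 in the middle, and on the right Camp, Ngp and Ltf lie above 1 while Lcn2, Cd177 and Wfdc21 lie near 0.

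Per cell, secondary granule transcripts marked a larger part of the lineage than primary ones. After each cell was thinned to 1000 UMIs, 53.9% (51.5 to 56.3) of 1713 KO and 57.4% (55.3 to 59.5) of 2185 WT lineage cells exceeded the 99th percentile of lymphocytes of their own library in secondary granule UMIs, with 18 KO and 34 WT cells too shallow to be thinned. The threshold was 2 UMIs in KO and 1 in WT, because of the higher KO background. The difference, -3.55 points (-6.69 to -0.41), turned to 8.00 points when 1 UMI was enough and to 10.7 points at 500 UMIs per cell, so it has no settled direction. Unthinned, 92.9% of KO and 87.0% of WT lineage cells had a secondary granule UMI. For the primary granule genes the shares were 1.05% in KO and 0.824% in WT (difference 0.227 points, -0.384 to 0.902), and unthinned 3.99% and 2.12%.

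The spread within stages was wide. Thinned early KO cells held a median of 123 secondary granule UMIs per 1000 (10th to 90th percentile 91 to 150), and thinned early WT cells a median of 112 (2.10 to 137). Mature-like cells held a median of 2 per 1000 in both genotypes, with 90th percentiles of 6 in KO and 7 in WT. Of these cells 41.2% in KO and 55.2% in WT exceeded their library's threshold. The 74 KO and 61 WT Mmp8-led cells lay between, with medians of 49.5 and 18.0 per 1000, and all of them exceeded the threshold.

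Lineage cells with 3 or more primary granule UMIs also carried many secondary ones. In the KO spleen 14 lineage cells had 3 or more primary granule UMIs, and they held between 2249 and 4186 secondary granule UMIs, with a median share of 11.04% of the cell. The 255 KO early cells with no primary granule UMI had a median of 1384 secondary granule UMIs and a like share, 12.3%, at less depth (median 11255 against 26443.5 UMIs). The WT spleen had 1 lineage cell with 3 or more primary granule UMIs, and it held 2464 secondary granule UMIs. The cells with 1 or 2 primary granule UMIs, 55 in KO and 46 in WT, had a median of 1513 secondary granule UMIs in KO and 5 in WT, and 2 KO and 7 WT cells with 1 primary granule UMI had none. In the main clustering no lineage cell kept in either spleen library had 3 or more primary granule UMIs with few secondary ones.

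In the main clustering, cells rich in primary granule transcripts alone lay outside the named lineage. This placement depends on the clustering. With doublets kept, 28 of 30 KO and 8 of 16 WT cells with 10 or more primary granule UMIs lay in the lineage. Among them was a WT cell with 829 primary and 1 secondary granule UMIs. In the spleen 14 KO and 16 WT kept cells had 10 or more primary granule UMIs, and they held 64.1% and 56.1% of all primary granule UMIs of kept cells. Of the 14 KO cells 5 were cycling cells of the lineage, with 2877 to 3407 secondary granule UMIs, and the other 9 lay in an unnamed cluster led by Prss34 and had fewer than 100. Of the 16 WT cells 1 was a cycling cell of the lineage, 8 were in the Prss34-led cluster and 7 were in a monocyte cluster. The unnamed cluster (28 KO and 43 WT cells) was led by Prss34, a mast cell and basophil protease gene, and by histone and cell-cycle genes, and had median depth of 22123 UMIs. Its cells with 10 or more primary granule UMIs each held between 46 and 200 UMIs of Ly6c2, a monocyte marker on the fixed lists. They also held between 2 and 50 UMIs of Irf8, a monocyte lineage factor. Ctsg, Ms4a3 and Kit, granulocyte progenitor markers on the fixed lists, ranged in them from 0 to 50, 0 to 26 and 0 to 8 UMIs. The highest count of each was in the WT cell with 829 primary granule UMIs. The identity of these cells was not tested. The cluster stood at 1015 CPM in KO and 1320 CPM in WT for the primary granule sum, with Prtn3 at 652 and 542, Elane at 279 and 313, and Mpo at 84.1 and 466 CPM. A single WT cell held 829 of the 1397 WT primary granule UMIs of this cluster, 402 of them Mpo. Camp, Ngp and Ltf had 26 UMIs in its KO cells and 8 in its WT cells.

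Doublet removal and the clustering run after it decide how many of these cells are counted and where they fall. Doublet removal took out 16 KO barcodes with 10 or more primary granule UMIs and no such WT barcode. The 16 held 6467 primary granule UMIs, with a median of 44 and a maximum of 2582, and none had 100 or more secondary granule UMIs. Over all barcodes 30 of 7789 in KO (0.385%, 0.260 to 0.549) and 17 of 8107 in WT (0.210%, 0.122 to 0.336) had 10 or more primary granule UMIs. The primary granule sum over all kept spleen cells stood at 33.5 CPM in KO and 53.2 CPM in WT (log2 -0.67, -0.77 to -0.57), and with doublets kept at 175 and 50.6 CPM (1.79, 1.73 to 1.85). Within the lineage the log2 ratio stayed at 1.86 with doublets kept, but on 28 KO and 8 WT cells with 10 or more such UMIs in place of 5 and 1. Since no such WT barcode had been removed as a doublet, the WT change came from cells newly placed in the lineage. The ratios with and without doublets thus cover different sets of cells.

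**Figure D4:**
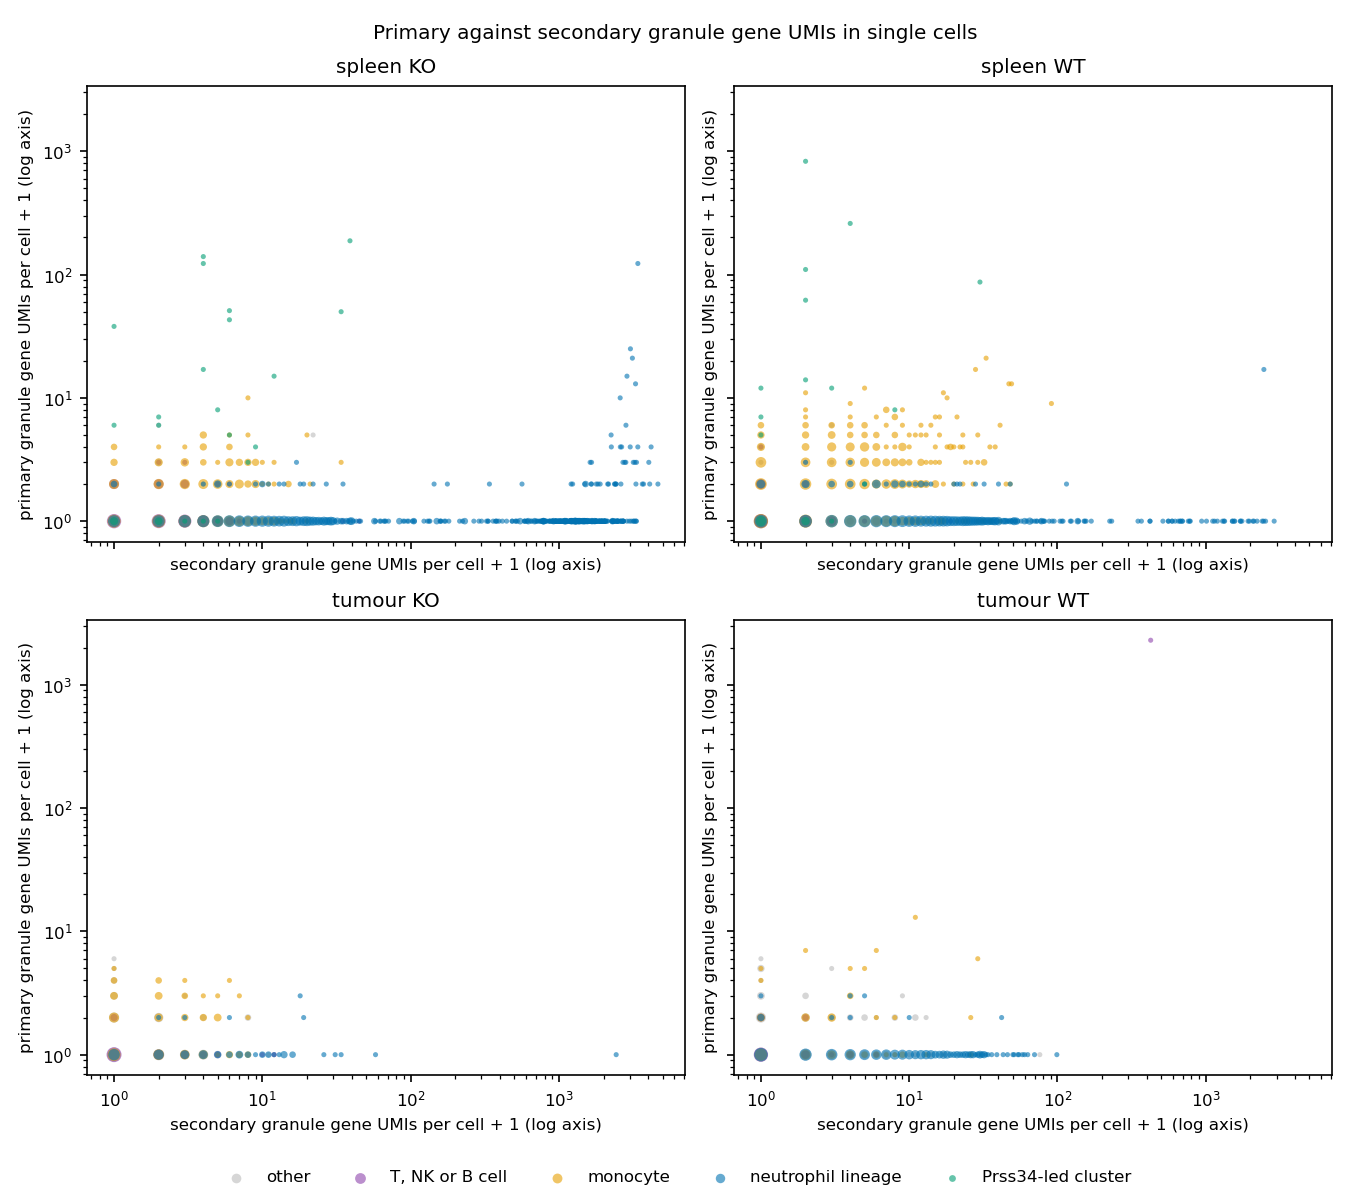
Primary (y axis) against secondary (x axis) granule gene UMIs per kept cell, each plus 1 and on a log axis, in the KO and WT spleen (top) and the KO and WT tumour (bottom); larger points stand for more cells at that place, and colours give the cell class. In the KO spleen the 14 lineage cells with 3 or more primary UMIs lie at 2249 or more secondary UMIs, and the cells of the Prss34-led cluster lie at the left of both spleen panels.

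Tumour neutrophil-lineage cells numbered 143 in KO (3.23% of kept cells) and 1024 in WT (26.5%). They were not split into stages, and 15 KO and 285 WT of them lay in subclusters led by mast cell genes or by Fosl1, Spp1 and Hmox1. Another 15 WT cells lay in a subcluster with the B cell genes Ebf1, Cd79a and Cd79b among its leading genes. Primary granule genes were nearly absent, with 6 UMIs in KO and 13 in WT. Of the 6 secondary granule genes 5 were at least 1.5-fold higher in KO, where 30.6% of 7526 genes passed upward and 13.3% downward (33.6% and 32.1% with no filter on low counts). Their sum stood at 5384 CPM in KO and 1082 CPM in WT (log2 2.32, 2.25 to 2.39). That difference rests on 1 KO cell of 15544 UMIs with 684 Camp, 913 Ngp, 267 Ltf and 477 Lcn2 UMIs, in which 15.7% of UMIs were secondary granule transcripts. Without it the sum stood at 869 CPM in KO and 1082 CPM in WT, a log2 ratio of -0.32 (-0.46 to -0.18). Camp then had 2 UMIs (3.84 CPM) in KO and 7 (1.97 CPM) in WT, a ratio of 0.96 (-2.34 to 3.36), and Ngp 1 and 20 UMIs (-1.55, -6.93 to 1.09). Ltf stood at 30.7 CPM in KO and 17.8 CPM in WT (0.79, -0.10 to 1.60), and Prtn3 had 6 UMIs in KO and 11 in WT (1.90, 0.18 to 3.46). The intervals of Camp, Ngp and Ltf include 0. Lcn2 stood at 454 and 564 CPM (-0.31, -0.51 to -0.12) and Wfdc21 at 365 and 473 CPM (-0.37, -0.60 to -0.16).

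Compared with WT spleen cells, WT tumour cells held Lcn2 and Wfdc21 but almost no Camp or Ngp. Their secondary granule sum stood at 1082 CPM in the tumour and 11705 CPM in the spleen lineage (log2 -3.44, -3.48 to -3.39). Camp had 7 UMIs (1.97 CPM) in the tumour and 2300 CPM in the spleen (-10.19, -11.50 to -9.14), and Ngp 20 UMIs (5.64 CPM) and 3422 CPM (-9.25, -9.96 to -8.62). Lcn2 stood at 564 and 2158 CPM (-1.94, -2.00 to -1.87) and Wfdc21 at 473 and 2181 CPM (-2.20, -2.28 to -2.13).
Against WT spleen mature-like cells alone the tumour cells were also lower for Cd177 (19.4 against 81.3 CPM, -2.06), Wfdc21 (-1.90), Lcn2 (-0.90), Camp (-2.26) and Ngp (-3.36), while the interval for Ltf included 0 (17.8 against 15.3 CPM, 0.21, -0.29 to 0.70). The share of thinned tumour lineage cells above the lymphocyte level was 29.8% in KO and 36.1% in WT. Tumour and spleen cells were sorted with different gates, which the comparison cannot separate from the organ. The cells were also chosen unlike, since the macrophage-led spleen subcluster was left out of the mature-like cells. The tumour side kept all subclusters. Among its WT cells 162 lay in one led by mast cell genes, 123 in one led by Fosl1 and 15 in one with leading B cell genes.

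Some of the 10 genes were also present in monocytes, away from the neutrophil background. Prtn3 stood at 20.6 CPM in 1251 KO and 37.2 CPM in 2586 WT spleen monocyte-like cells, 16.8-fold and 37.6-fold above the lymphocytes of the same library. Cd177 stood at 117 and 94.5 CPM, 24.2-fold and 66.9-fold above lymphocytes. Camp stood at 27.6 CPM in KO and 2.55 CPM in WT, below lymphocytes in both on the CPM scale, as were Ngp and Ltf. Monocyte-like cells are deeper than lymphocytes (median 9567 against 4115.5 UMIs in KO, 11009.5 against 4369 in WT). Where both carry the same number of background UMIs, this lowers the CPM of monocyte-like cells. Counted per cell, a secondary granule UMI (Cd177 included) was present in 74.5% of KO monocyte-like cells and 52.1% of KO lymphocytes, and in 46.4% and 13.4% in WT. Of the 10 genes 5 were at least 1.5-fold lower in KO monocyte-like cells (Elane, Mpo, Prtn3, Fcnb and Wfdc21), where 5.05% of 12042 genes passed downward. Elane (11 UMIs in KO and 44 in WT) had an interval that includes 0 (-0.74, -1.84 to 0.24). Mpo, at 0.602 CPM in KO and 1.44 CPM in WT, was below lymphocytes in both on the CPM scale. KO Elane (0.946 CPM) and KO Wfdc21 (8.77 CPM) were near KO lymphocytes (0.996 and 9.19 CPM) on that scale. At the greater depth of monocyte-like cells this does not place these 2 genes at background per cell. The 3 that were higher, Camp, Ngp and Ltf, were below lymphocytes in both genotypes on the CPM scale, where 3.75% of genes passed upward.

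The 3 main monocyte clusters differed in these genes. In the cluster led by Vcan, Fn1 and F13a1 (298 KO and 613 WT cells) Prtn3 stood at 42.7 CPM in KO and 80.4 CPM in WT (log2 -0.91, -1.18 to -0.66). Lcn2 stood there at 49.0 and 85.7 CPM (-0.81, -1.05 to -0.57) and Wfdc21 at 12.9 and 110 CPM (-3.10, -3.56 to -2.66). For Cd177, at 187 and 172 CPM, the interval included 0 (0.12, -0.02 to 0.25). With cells thinned to 5000 UMIs, Wfdc21 was present in 5.41% of 296 KO and 19.3% of 607 WT cells. Prtn3 was present in 18.2% (14.0 to 23.1) and 25.5% (22.1 to 29.2). For Lcn2 the thinned shares were close, at 18.9% (14.6 to 23.9) in KO and 20.4% (17.3 to 23.9) in WT. Thinned cells with 3 or more Lcn2 UMIs numbered 3 in KO and 30 in WT. A cluster led by Tppp3, Cd93 and Plac8 (465 KO and 846 WT cells) had Prtn3 at 15.8 and 26.03 CPM and Cd177 at 110 and 90.6 CPM. Its thinned cells held Prtn3 in 7.73% (5.44 to 10.6) of KO and 9.28% (7.39 to 11.5) of WT, with overlapping intervals. In the cluster led by Fabp4, Cd300e and Ace (355 KO and 974 WT cells), genes of patrolling monocytes, Prtn3 stood at 0.5004 and 1.073 CPM, the level of lymphocytes.
The tumour cluster led by Chil3, Tppp3 and Lyz2 (221 KO and 90 WT cells) had the same order, with Prtn3 at 27.2 CPM in KO and 52.8 CPM in WT (-0.96, -1.44 to -0.47), Lcn2 at 3.61 and 61.7 CPM (-4.10) and Wfdc21 at 2.29 and 42.2 CPM (-4.20, -5.59 to -3.06). The thinned shares of cells with Prtn3 overlapped there, at 13.3% (9.09 to 18.5) in KO and 16.3% (9.20 to 25.8) in WT.

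**Figure D5:**
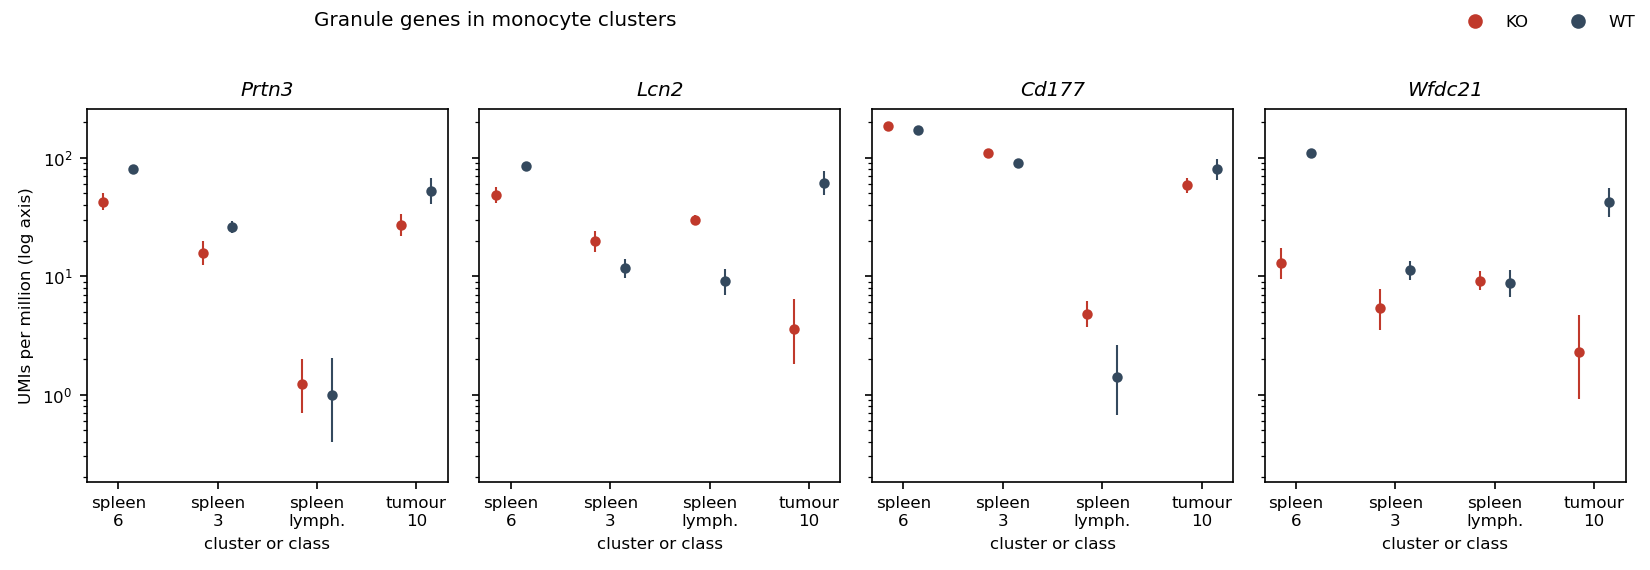
Levels of Prtn3, Lcn2, Cd177 and Wfdc21 (CPM, log axis, 95% Poisson intervals) in the Vcan-led spleen cluster (6), the Tppp3-led spleen cluster (3), spleen lymphocytes and the Chil3-led tumour cluster (10), KO in red and WT in dark blue. On the CPM scale Prtn3 is lower in KO than in WT in all 3 monocyte clusters, and Wfdc21 in the Vcan-led cluster is 12.9 CPM in KO and 110 CPM in WT. The shares of thinned cells with Prtn3, not drawn, overlap within their intervals in each cluster.

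Other granule genes and the factors of granulopoiesis were read from lists fixed beside the 10. Over the spleen lineage 3 of the 5 measurable other primary granule genes were at least 1.5-fold higher in KO: Serpinb1a, a neutrophil protease inhibitor, at 462 CPM in KO and 73.4 CPM in WT (log2 2.65), Lyz2 (lysozyme, 1.66) and Cd63 (a granule membrane tetraspanin, 1.20). Of 18 other secondary and tertiary granule genes 4 were higher and 3 lower, with a median of -0.04, shares near the 23.1% and 17.9% of all genes. The most abundant of these 7 were Chil3 (a chitinase-like protein, 3713 and 589 CPM, 2.66), Cybb (an NADPH oxidase subunit, 2183 and 411 CPM, 2.41), Anxa1 (annexin A1, 1.12) and Arg2 (an arginase, -0.86). Of 9 transcription factors Cebpe, which drives secondary granule genes, stood at 303 CPM in KO and 48.0 CPM in WT (2.66). Myb (2.75) and Gfi1 (1.96) were also higher, and 2 factors were lower, among them Cebpb (-0.90).
Within stages fewer of them passed the fold. In early cells none of the 8 measurable factors was higher and Irf8, a monocyte lineage factor, was lower (9.29 CPM in KO and 34.7 CPM in WT, -1.90). Of 17 secondary and tertiary granule genes 1 was higher in early cells, Olfm4, and 3 were lower, Retnlg (-0.79), Stfa2l1 (-1.49) and Arg2 (-1.64), with a median of 0.07, beside 18.7% of all genes higher and 15.2% lower. Of the 5 measurable primary granule genes Ctsc, the protease that activates granule serine proteases, was lower on 23 UMIs in KO and 5 in WT (-1.25, with an interval of -2.67 to 0.50 that includes 0). In mature-like cells 1 of 18 secondary and tertiary granule genes was higher (Stfa2l1, a stefin, 0.74) and 2 were lower (Olfm4 and Cybb, -1.18 and -0.68), and no other primary granule gene passed in either direction. Of 7 factors measurable there 1 was higher, Irf8, at 13.9 CPM in KO and 8.87 CPM in WT (0.64, 0.03 to 1.26). Among all genes of mature-like cells 5.58% passed upward and 7.97% downward, so the counts of secondary and tertiary granule genes are near those shares.

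Olfm4, a secondary granule gene known to mark only some neutrophils, had the largest gap of these lists in early cells. It had 1406 UMIs (344 CPM) in KO and 1 UMI (2.67 CPM) in WT early cells (log2 7.01, 4.53 to 12.31), and was at least 1.5-fold lower in KO among mature-like cells, at 21.1 CPM against 47.9 CPM (log2 -1.18, -1.58 to -0.80). All the KO early UMIs lay in 17 of 301 cells (5.65%, 3.32 to 8.89), each with 5 or more, and the WT UMI in 1 of 33 cells (3.03%, 0.0767 to 15.8). The shares of cells with the transcript thus overlap within their intervals.

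The patterns nearest to the lists were described over 18 points, the 9 spleen lineage subclusters in each genotype, and the points share 2 libraries, differ in depth and rest on as few as 13 cells. Among 5618 genes, the log2 level of the primary granule sum ran closest to Kif15 (Pearson r 0.87), Smc2 (0.86), Rad21 (0.85), Nusap1 (0.85) and Spc25 (0.83), most of them genes of mitosis or chromosome structure. The secondary granule sum ran closest to Arhgdib (0.99), Adpgk (0.98), Dstn (0.98), Mapk13 (0.98) and 4930438A08Rik (0.98).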

How the data were processed

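The deposited values are raw UMI counts per gene and cell barcode, made by the authors with Cell Ranger (version 6.0.0 per the file headers, 3.1 per the submitters' processing notes, which also name Seurat 3.1.4, Seurat 3.1 and the mm10 build). Per the labels' protocols, a 3' v3.1 droplet kit was used and 16000 cells were loaded per lane.

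From these counts, barcodes with at least 500 UMIs, 200 genes and at most 10% mitochondrial UMIs were kept, which removed 45 KO and 34 WT spleen barcodes for low counts and 792 and 543 for mitochondrial share. A simulated-doublet score then removed 433 KO and 488 WT spleen barcodes (6.23% and 6.48%) and 228 KO and 154 WT tumour barcodes (4.90% and 3.83%). Cells were clustered per organ over both genotypes (2000 variable genes without the 10 genes, 30 principal components, 15 neighbours, Leiden resolution 1.0), and neutrophil-lineage clusters again for stages. Clusters were named from fixed marker lists. No name was given where the top 10 genes of a cluster held fewer markers of that name than of some other class. A subcluster was kept out of the stages where its top 10 genes held 2 or more markers of a different cell class and fewer of its own. Both of these rules were set after the clusters were seen.

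UMIs were summed per library and class. Ratios carry exact conditional binomial intervals, levels Poisson intervals, shares Clopper-Pearson intervals and differences of shares Newcombe intervals, all at 95% and all covering counting error only. Pools of mice are 1 library per group, so no test was made. The 1.5-fold mark was applied to genes with at least 20 UMIs over both libraries. Python 3.11.15, numpy 2.4.6, scipy 1.17.1, leidenalg 0.10.2 and igraph 0.11.9 were used, and the steps were tested on simulated data. The 10 genes and the marker and gene lists were chosen with earlier results of these data known. Of the other granule genes, the text names those past the fold with at least 20 UMIs, at most the 4 with most UMIs per list and comparison, and for likeness the 5 genes with the highest Pearson r to a list's sum.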

Additional observations from a re-analysis of the deposited data

Results flagged for a closer look

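In the tumour, 1 WT barcode in a cycling T cell cluster held 2299 primary granule UMIs, 1168 of Elane, 339 of Mpo and 792 of Prtn3, with 148 Fcnb, 255 Camp and 194 Ctsg UMIs, among 59630 UMIs in all. It alone sets the WT tumour lymphocyte level of the primary granule sum, 217 CPM, against 0.0927 CPM in KO tumour lymphocytes. It also held 424 secondary granule UMIs, most of those in WT tumour lymphocytes.

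In the KO spleen, 16 barcodes with 10 or more primary granule UMIs were removed as doublets. They enter only values over all barcodes or under other filters, such as doublets kept. They had a median depth of 29860 UMIs, and none held 100 or more secondary granule UMIs.

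The unnamed, Prss34-led spleen cluster of cycling cells, used in no comparison of stages, had a primary granule sum of 1015 CPM in KO and 1320 CPM in WT, against 3.75 CPM in KO and 3.25 CPM in WT lymphocytes. A single cell held 59.3% of its WT primary granule UMIs.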

How the results depend on the processing

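No paired analysis was possible because each genotype and organ has 1 pooled library with no replicate number. The cause of the shifts given here was not tested unless the setting itself shows it. The log2 KO/WT ratio of the secondary granule sum over the spleen lineage, 2.49, was 2.37 with equal weight per cell, 2.57 when scaled without the 10 genes, 2.51 with a median-of-ratios size factor, 2.38 with cells thinned to 1000 UMIs, 2.35 without its most abundant gene, 2.37 with cells from 200 UMIs, 2.42 with up to 20% mitochondrial UMIs and 2.27 with doublets kept. That of the primary sum, 1.83, was -0.015 with equal weight, 0.64 thinned, 1.27 without its most abundant gene, 3.05 with Fcnb added and 4.96 with cells from 200 UMIs. Over all kept spleen cells it was -0.67, and 1.79 with doublets kept. The tumour KO/WT ratio of the secondary sum, 2.32, was 0.89 with equal weight, 2.09 with the size factor, 0.71 thinned, 1.77 without its most abundant gene, 2.11 with doublets kept and -0.32 without 1 KO cell, a setting chosen after seeing the data, under which Ngp was -1.55, Lcn2 -0.31 and Cd177 -0.53, while Camp (0.96), Ltf (0.79) and Prtn3 (1.90) kept their sign. Cd177 there was -0.16 with equal weight. The WT tumour/spleen ratio, -3.44, was -2.27 with equal weight, -3.11 with the size factor, -2.26 thinned, -3.49 with lymphocyte levels subtracted, -2.94 without its most abundant gene and -3.55 with cells from 200 UMIs. The WT tumour lymphocyte level subtracted there came mostly from the 1 barcode in a T cell cluster flagged above. The share of spleen lineage cells above the lymphocyte level, -3.55 points, was 9.63 with doublets kept, 10.7 thinned to 500 UMIs and 8.00 with at least 1 UMI.

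In early cells Fcnb was -0.16 thinned and -0.051 with up to 20% mitochondrial UMIs, Ngp -0.013 with cells from 200 UMIs and -0.0073 with up to 20% mitochondrial UMIs, Cd177 -0.0076 with doublets kept, and Wfdc21 -0.065 with cells from 200 UMIs, -0.098 with up to 20% mitochondrial UMIs, -0.0051 with doublets kept and -0.049 at Leiden resolution 0.5. The mature-like secondary sum was 0.013 thinned. Of the values recomputed for single genes, 108 of 110 kept their direction over the spleen lineage, 85 of 96 in early cells, 100 of 104 in mature-like cells, 71 of 82 in the tumour, 101 of 104 in monocyte-like cells and 93 of 93 for WT tumour over spleen. The primary and secondary sums are not in these counts. With no filter on low counts, the genes past 1.5-fold upward and downward numbered 4585 and 3986 over the lineage (2343 and 1820 with the filter), 4486 and 2733 in early cells (1499 and 1219), 2761 and 3196 in mature-like cells (486 and 694), 4871 and 4651 in the tumour (2306 and 999), and 2095 and 3272 in monocyte-like cells (452 and 608). The 33 WT early cells and their 16 primary granule UMIs limit what can be said of that stage.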
